A study of Mus musculus with 13 samples.

Results

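The glucocorticoid receptor, its close relative the mineralocorticoid receptor, 5 genes known as their targets and the enzymes that interconvert active and inactive glucocorticoid were followed in RNA captured from mouse kidney. The genes were chosen by name, as the rows of the estimated-count table with the symbols Nr3c1, Nr3c2, Fkbp5, Tsc22d3, Sgk1, Zbtb16, Klf9, Hsd11b1 and Hsd11b2, which are 9 of 35013 rows. All 9 passed the filter on low counts, as did 16468 rows in all. The 13 libraries came from female mice. All mice carried Megalin3'Cre-Ert, in which the megalin promoter drives a tamoxifen-inducible Cre recombinase, together with one floxed-stop Uprt allele, and all were given tamoxifen. In cells where Cre has acted, uracil phosphoribosyltransferase (UPRT) builds 4-thiouracil into new RNA, which is then biotinylated, pulled down on streptavidin and selected for poly-A tails. Spns1 KO mice (4 libraries) had both Spns1 alleles floxed. WT mice (5 libraries) are Spns1 WT in the labels, whereas the methods give them 1 floxed Spns1 allele and therefore a heterozygous deletion wherever Cre has acted. FeO mice (4 libraries) had the WT genotype and received 12 mg of iron as iron sucrose on each of 3 days, with euthanasia 1 week later. Ages, the hour at which kidneys were taken, and whether each library came from a separate mouse are not given in the sources used here, so the p-values measure only the spread between these libraries.

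Glucocorticoids enter cells by diffusion and bind the glucocorticoid receptor, which waits in the cytoplasm in a complex with heat shock proteins and immunophilins. The bound receptor moves to the nucleus, binds DNA at palindromic response elements and raises the transcription of genes such as Fkbp5, Tsc22d3, Sgk1, Zbtb16, Klf9 and Per1. The mineralocorticoid receptor binds the same elements and the same hormone, and in the aldosterone-sensitive tubule Hsd11b2 inactivates glucocorticoid so that aldosterone can reach it. Glucocorticoid secretion follows a daily rhythm and rises under stress.

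The library totals ran from 23068023 to 71296474 estimated counts. Markers of the proximal tubule, the labelled cell type, were present in every library, and their summed level was 8207 to 9561 CPM (counts scaled to 1000000 per library, with TMM factors) in Spns1 KO, 4291 to 5849 in WT and 2526 to 5539 in FeO. Markers of the loop, distal tubule and collecting duct were present too, at 3869 to 5005, 2374 to 5231 and 2605 to 6933 CPM, so the captured RNA was not of the proximal tubule alone. In such mixed RNA, fewer cells of a type and less RNA per cell cannot be told apart. The targeted gene Spns1, counted over its whole length, was at 39.0, 44.5, 36.6 and 59.0 CPM in Spns1 KO 1 to 4. In WT 1 to 5 it was at 57.2, 61.4, 57.6, 39.2 and 62.9 CPM. FeO 1 to 4, of the WT genotype, had 58.7, 56.7, 39.0 and 45.95 CPM. The library labelled Spns1 KO 4 thus lay among the WT values and the library labelled WT 4 among the Spns1 KO values. FeO 3 lay among the Spns1 KO values too, so a level near 39.0 CPM was not confined to the Spns1 KO genotype. The difference between Spns1 KO and WT did not pass the test (log2 fold change -0.31, SE 0.18, adjusted p = 0.225). In the paper the loxP sites lie around 1 Spns1 exon, whereas these counts cover the whole gene. By other assays the paper reports loss of Spns1 RNA and protein in Megalin3'Cre-Ert mice with both alleles floxed. The summed proximal tubule markers were 8768 CPM in the library labelled Spns1 KO 4, within the range of the other 3 Spns1 KO libraries, and 5513 CPM in the library labelled WT 4, within that of the other WT libraries. Without both of these libraries the Spns1 difference passed (-0.58, adjusted p = 0.0118), as it did with each library's trend on transcript length and GC content removed (-0.53, adjusted p = 0.0273). The Spns1 levels raise a question about the labels of these libraries and do not settle it. Calls of the 9 genes that depend on either of these libraries, and the counts of the gene lists, are therefore also given without it.

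In FeO, 5 of the 9 genes were lower than in WT and 1 was higher, with fold changes of up to 4.61. In Spns1 KO, 2 were lower and 2 were higher. A gene is called here when its p in the quasi-likelihood test of edgeR, adjusted by Benjamini-Hochberg over all 16468 genes, was below 0.05 and its log2 fold change lay above 0.5 or below -0.5. By this rule 19.7% of all genes tested were called lower and 22.4% higher in FeO, against 7.55% lower and 14.0% higher in Spns1 KO. Over all genes that was 2307 higher and 1243 lower in Spns1 KO. With library totals alone as the scaling, the median of all genes moved from -0.05 to -0.18 and the split was 1739 higher and 2086 lower, with 1 of the 9 genes higher and 5 lower. The median log2 fold change of the 9 genes was -0.78 in FeO and -0.51 in Spns1 KO, beside -0.01 and -0.05 over all genes tested. All 4 Spns1 KO libraries lay above all 5 WT libraries for Hsd11b1 and below them for Fkbp5, where 13.1% of all genes lay above and 9.38% below. All 4 FeO libraries lay above all WT libraries for Hsd11b2, where 16.9% of all genes did so, and below them for Tsc22d3, Zbtb16 and Klf9, where 16.4% did. Both comparisons use the same WT libraries.

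**Figure D1:**
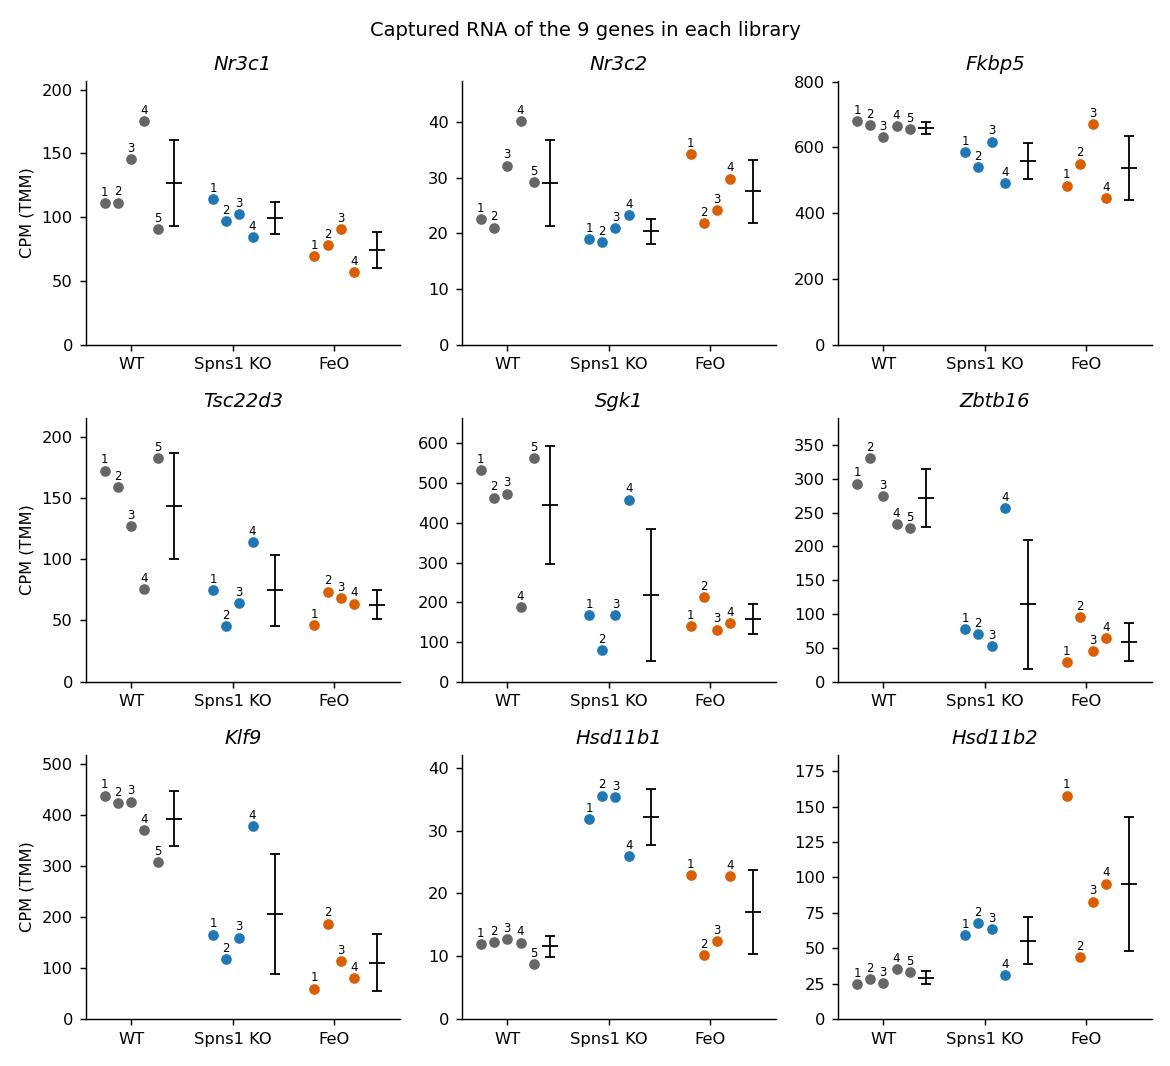
Each panel plots the level of 1 gene in CPM (vertical axis from 0) in the 5 WT, 4 Spns1 KO and 4 FeO libraries, each point labelled with its replicate number, with the group mean and SD as a bar at the right. Hsd11b1 is higher in every Spns1 KO library than in any WT library, and Zbtb16, Klf9 and Sgk1 in Spns1 KO 4 stand at 257, 378 and 458 CPM, well above the other 3 Spns1 KO libraries.

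Nr3c1 (chromosome 18 from 39410545 to 39519421, minus strand, GRCm38) encodes the glucocorticoid receptor. It was at 111, 111, 146, 175 and 90.3 CPM in WT 1 to 5. In FeO 1 to 4 it was at 69.6, 78.1, 90.9 and 57.2 CPM. The Spns1 KO libraries 1 to 4 had 114, 96.7, 102 and 84.2 CPM. Only 1 FeO library, FeO 3, reached the lowest WT library, whereas 3 of the 4 Spns1 KO libraries lay inside the WT range. This contrast depended on the scaling. With library totals alone, all 4 FeO libraries (58.7 to 82.6 CPM) lay below the lowest WT library (101.4 CPM). Of the Spns1 KO libraries only Spns1 KO 1 (107.4 CPM) was then inside the WT range. Nr3c1 was lower in FeO than in WT (log2 fold change -0.78, SE 0.20, adjusted p = 0.0057, 1.71-fold). In Spns1 KO the difference of -0.35 (SE 0.19, adjusted p = 0.202) did not pass. The FeO call was lost, at -0.24 with an adjusted p of 0.222, when each library's trend on transcript length and GC content was removed, and the Spns1 KO difference then stood at 0.03.

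Nr3c2 (chromosome 8 from 76899442 to 77245012, plus strand) encodes the mineralocorticoid receptor, which is best known from the distal nephron. It shares exonic sequence with the long noncoding gene Gm10649 on the other strand, and whether counting used strand is not stated. Its levels were 22.6, 21.1, 32.2, 40.2 and 29.2 CPM in WT 1 to 5. In Spns1 KO 1 to 4 they were 18.9, 18.4, 20.9 and 23.3 CPM. FeO 1 to 4 had 34.3, 21.9, 24.3 and 29.9 CPM. All 4 FeO libraries fell inside the WT range, while 3 Spns1 KO libraries fell below it. Neither difference passed the test, with log2 fold changes of -0.51 (SE 0.20, adjusted p = 0.0707) in Spns1 KO and -0.08 (SE 0.20, adjusted p = 0.767) in FeO. Without the library labelled Spns1 KO 4, Nr3c2 was called lower in Spns1 KO (-0.58, adjusted p = 0.0459), and without the library labelled WT 4 it was not (-0.35, adjusted p = 0.189).

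Fkbp5 (chromosome 17 from 28399094 to 28517527, minus strand) encodes an immunophilin that binds the receptor complex, lowers its affinity for hormone and is itself induced by the receptor. It was the steadiest of the targets. WT 1 to 5 had 679, 667, 632, 664 and 654 CPM. Spns1 KO 1 to 4 had 586, 539.8, 618 and 491 CPM. FeO 1 to 4 had 484, 550.5, 669.9 and 446 CPM. Every Spns1 KO library and 3 of the 4 FeO libraries lay below every WT library, yet by little. The log2 fold changes of -0.24 (SE 0.16, adjusted p = 0.284) in Spns1 KO and -0.29 (SE 0.16, adjusted p = 0.138) in FeO did not pass the test, and neither did under any of the 24 alternative settings.

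Tsc22d3 (chromosome X from 140539528 to 140600659, minus strand) encodes the glucocorticoid-induced leucine zipper protein, a mediator of the hormone's anti-inflammatory action. WT 1 to 5 had 172, 159, 127, 75.7 and 182 CPM. In Spns1 KO 1 to 4 the level was 74.5, 45.5, 63.9 and 114 CPM, and in FeO 1 to 4 it was 46.4, 73.5, 68.4 and 63.7 CPM. All FeO libraries lay below the lowest WT library, WT 4, which itself was well under the other WT libraries. In Spns1 KO only the library labelled Spns1 KO 4 rose above WT 4. Tsc22d3 was lower in FeO (log2 fold change -1.19, SE 0.28, adjusted p = 0.0036, 2.27-fold) and in Spns1 KO (-0.94, SE 0.27, adjusted p = 0.023, 1.92-fold). The FeO call held under all 24 alternatives. The Spns1 KO call held under 18, and was lost when any 1 of Spns1 KO 1, 2 or 3 or WT 5 was left out, where the adjusted p reached 0.0806. With the library labelled Spns1 KO 4 left out it was -1.22 (adjusted p = 0.00326), and without the library labelled WT 4 it was -1.09 (adjusted p = 0.00889).

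Sgk1 (chromosome 10 from 21882184 to 21999903, plus strand) encodes serum- and glucocorticoid-regulated kinase, which keeps the epithelial sodium channel at the cell surface and answers to both receptors. WT 1 to 5 had 533, 463, 474, 188 and 562 CPM. Spns1 KO 1 to 4 had 167, 79.1, 168 and 458 CPM. The FeO libraries were tight, at 141, 214, 131 and 147 CPM. As with Tsc22d3, the library labelled WT 4 sat at the level of the treated groups and the library labelled Spns1 KO 4 at that of WT. Sgk1 was lower in FeO (log2 fold change -1.49, SE 0.42, adjusted p = 0.010, 2.81-fold), and at -1.67 (adjusted p = 0.0050) without the library labelled WT 4. The FeO call was lost under 1 of 24 alternatives, with the length and GC trend removed and the replicate block (adjusted p = 0.0595). In Spns1 KO the 2.03-fold lower level did not pass the test (-1.02, SE 0.41, adjusted p = 0.0808). Without the library labelled Spns1 KO 4 it did (-1.68, adjusted p = 0.00226), as it did without the library labelled WT 4 (-1.20, adjusted p = 0.0446). It also passed with DESeq2 (adjusted p = 0.0318), limma-voom (0.0421) and library totals alone as the scaling (0.0471).

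Of the 6 genes whose promoter windows were searched, Sgk1 alone had a full receptor palindrome just upstream of an annotated start, so its sequence is shown. The palindrome searched was the arm AGAACA, any 3 bases, and the arm TGTTCT, which reads the same on both strands. RefSeq promoter windows (GRCm38.p6) were at hand for 6 of the 9 genes, 13 windows in all, of which 6 belong to Sgk1. In the 250 bases before the start, 3 of 32851 mouse promoters (0.00913%) held the full palindrome and 1 of them is an Sgk1 promoter. A form with up to 2 mismatches in the 12 fixed bases, which includes the full palindrome, was held by 1.56% of promoters and by 2 of the 13, both of Sgk1. A single arm, on either strand, was held by 16.1% of promoters and by 4 of the 13, of which 3 are Sgk1 promoters and 1 is a Tsc22d3 promoter. The windows of Nr3c2, Fkbp5, Klf9 and Hsd11b1 held none of these forms, and windows for Nr3c1, Zbtb16 and Hsd11b2 were not analysed here. Both Sgk1 matches are on the plus strand and lie in introns of longer Sgk1 transcripts. The first, at chr10:21993686-21993730, has its palindrome 189 to 175 bases before the start at 21993890. The second, at chr10:21985906-21985950, has 2 mismatches and lies 183 to 169 bases before the start at 21986104. The 15 bases of each match are in capitals, with flanks in lower case.
Sgk1, full palindrome: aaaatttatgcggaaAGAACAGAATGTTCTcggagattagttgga
Sgk1, 2 mismatches: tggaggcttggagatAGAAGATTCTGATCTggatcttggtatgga
The estimated counts are per gene, so the levels above do not say from which start the Sgk1 RNA was made, and binding of either receptor was not measured.

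Zbtb16 (chromosome 9 from 48654297 to 48836222, minus strand) encodes the zinc finger repressor PLZF. It had the widest difference of the 9 genes in FeO against WT. WT 1 to 5 had 293, 330.0, 275, 233 and 227 CPM. Spns1 KO 1 to 4 had 78.3, 69.9, 52.9 and 257 CPM. FeO 1 to 4 had 29.6, 95.4, 45.8 and 64.8 CPM. No FeO library exceeded 95.4 CPM and no WT library was under 227, and of the Spns1 KO libraries 3 lay with FeO and the library labelled Spns1 KO 4 lay with WT. Zbtb16 was lower in FeO (log2 fold change -2.20, SE 0.43, adjusted p = 0.00129, 4.61-fold) under all 24 alternatives. In Spns1 KO it was 2.37-fold lower (-1.24, SE 0.42, adjusted p = 0.0416), a call that was lost under 11 of 24 alternatives. Leaving out the library labelled Spns1 KO 4 took it to -2.02 (SE 0.31, adjusted p = 0.000372). The call was lost without the library labelled WT 4, as it was without any other WT library.

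Klf9 (chromosome 19 from 23141226 to 23168134, plus strand), a Krüppel-like transcription factor that the receptor induces within hours and that represses other genes, followed the same course. WT 1 to 5 had 438, 424, 426, 370.3 and 307 CPM. Spns1 KO 1 to 4 had 165, 118, 159 and 378 CPM. FeO 1 to 4 had 59.5, 187, 113 and 80.7 CPM. Again the library labelled Spns1 KO 4 was inside the WT range and all other libraries of both groups were below it. Klf9 was 3.57-fold lower in FeO (log2 fold change -1.84, SE 0.36, adjusted p = 0.00118), also under all 24 alternatives. The Spns1 KO difference narrowly missed the threshold (-0.94, SE 0.34, adjusted p = 0.0593). It passed in 8 of 24 alternatives, among them DESeq2 (adjusted p = 0.0222), limma-voom, and the fit without the library labelled Spns1 KO 4 (-1.41, adjusted p = 0.00302). For Klf9 and Zbtb16, unlike Sgk1 and Tsc22d3, the library labelled WT 4 was close to the other WT libraries.

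**Figure D2:**
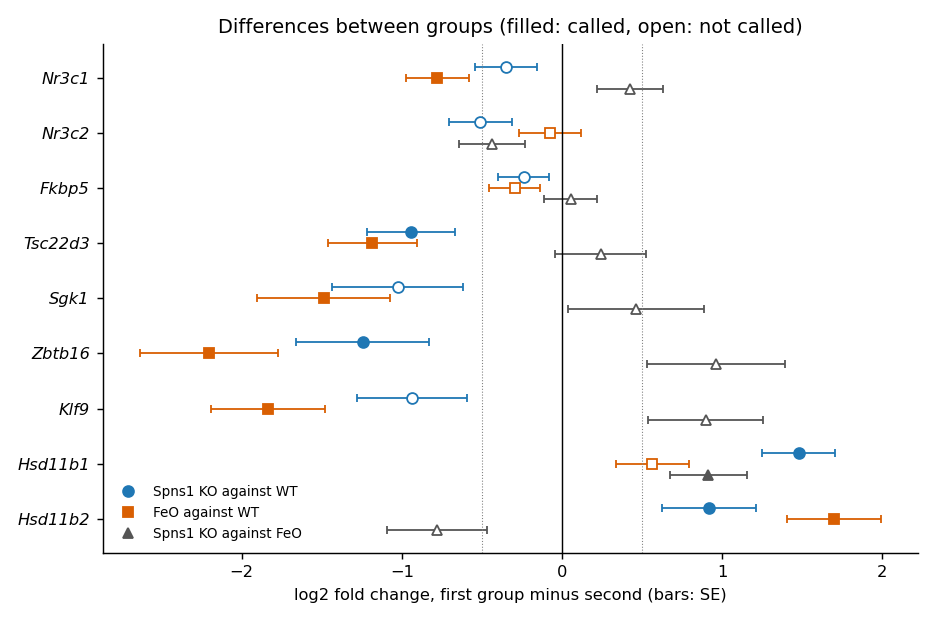
Log2 fold changes (horizontal axis, with SE bars) of the 9 genes in Spns1 KO against WT (circles), FeO against WT (squares) and Spns1 KO against FeO (triangles), where filled symbols passed the test and dotted lines mark 0.5 in either direction. The FeO values of Zbtb16 and Klf9, at -2.20 and -1.84, lie farthest to the left, and Hsd11b1 is the 1 gene with a filled triangle.

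Hsd11b1 (chromosome 1 from 193221634 to 193264075, minus strand) encodes the reductase that regenerates active glucocorticoid inside cells. It overlaps Lamb3 and the antisense gene 4930570N18Rik without sharing exons with either. Its level was low and even in WT 1 to 5, at 11.9, 12.3, 12.7, 12.2 and 8.69 CPM. Spns1 KO 1 to 4 had 31.8, 35.6, 35.4 and 26.0 CPM. FeO 1 to 4 had 22.9, 10.2, 12.5 and 22.8 CPM. The Spns1 KO libraries, the one labelled 4 included, all stood above every WT and every FeO library, and the FeO libraries split, with FeO 1 and 4 above the WT range and FeO 2 and 3 inside it. With library totals alone as the scaling, FeO 1 (24.57 CPM) lay just above the library labelled Spns1 KO 4 (24.44 CPM). Hsd11b1 was 2.79-fold higher in Spns1 KO than in WT (log2 fold change 1.48, SE 0.23, adjusted p = 0.000685). This call was kept under all 24 alternatives, with log2 fold changes from 1.21 to 1.59. In FeO the difference did not pass (0.56, SE 0.23, adjusted p = 0.0547). It passed under 5 of 24 alternatives, namely DESeq2 (adjusted p = 0.0458), no filter on low counts, and the fits without the library labelled Spns1 KO 4, without FeO 2 or without FeO 3.

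Summed markers of endothelium and stroma, like Hsd11b1, were above every WT library in all Spns1 KO libraries and were highest within FeO in FeO 1 and 4. Markers of the tubule shared parts of this course. Those of the proximal tubule were higher in every Spns1 KO library than in any WT library. Those of the loop, distal tubule and collecting duct were also highest within FeO in FeO 1 (6933 CPM) and FeO 4 (6416 CPM). The summed level of 8 endothelial markers was 338 to 389 CPM in Spns1 KO, 212 to 246 in WT and 208 to 389 in FeO, with FeO 1 at 389 and FeO 4 at 349. That of 8 stromal markers was 191 to 266 CPM in Spns1 KO, 131 to 159 in WT and 142 to 291 in FeO, again highest in FeO 1 and FeO 4, at 291 and 266. In FeO 1 the stromal sum was above that of every Spns1 KO library, whereas its Hsd11b1 level was not. None of these markers was at 0 in any library. In Spns1 KO, 5 of the 8 endothelial and 3 of the 8 stromal markers were called higher and none lower, beside 7 of 14 proximal tubule markers. Of all genes tested, 14.0% were called higher and 7.55% lower there. In FeO, 3 endothelial markers were higher and 1, Kdr (-0.65), was lower, beside 22.4% and 19.7% of all genes. Immune markers summed to 96.5 CPM in FeO 2 and 161 in FeO 3, above the 58.5 to 72.3 of WT. Podocyte markers summed to 381 CPM in FeO 2, above the 195 to 336 of WT, and to 290 in FeO 3, within it. Hsd11b1 was inside the WT range in both libraries. The part of these cells in the Hsd11b1 result was not tested.

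Hsd11b2 (chromosome 8 from 105518755 to 105523988, plus strand) encodes the dehydrogenase that inactivates glucocorticoid in the distal tubule and collecting duct. WT 1 to 5 had 24.9, 28.0, 25.4, 35.2 and 33.0 CPM. Spns1 KO 1 to 4 had 59.3, 67.5, 63.7 and 30.9 CPM. FeO 1 to 4 had 158, 43.9, 83.0 and 95.7 CPM. All FeO libraries were above all WT libraries over a wide range, and in Spns1 KO the library labelled Spns1 KO 4 alone lay among WT. Hsd11b2 was 3.25-fold higher in FeO (log2 fold change 1.70, SE 0.29, adjusted p = 0.000688), a call kept under all 24 alternatives. It was 1.89-fold higher in Spns1 KO (0.92, SE 0.29, adjusted p = 0.0336), a call lost under 10 of them. The difference was 1.12 (adjusted p = 0.00675) when the library labelled Spns1 KO 4 was left out, and without the library labelled WT 4 it was 1.01 (adjusted p = 0.0401).

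The highest Hsd11b2 levels came with high levels of markers of the segment that expresses it. The 16 loop, distal tubule and collecting duct markers summed to 6933 CPM in FeO 1 and 6416 CPM in FeO 4, against 2605 in FeO 2, where Hsd11b2 was lowest of the group, and 3667 in FeO 3. In FeO, 7 of the 16 were called higher and none lower, beside 22.4% and 19.7% of all genes. The largest rise was that of the vasopressin receptor gene Avpr2 (log2 fold change 2.02). The library labelled WT 4 had the highest sum in WT, 5231 CPM, and also the highest Hsd11b2 in WT, 35.2 CPM. FeO 2, with its lower sum, had 43.9 CPM of Hsd11b2. The part of these markers in the result was not tested.

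The test of Spns1 KO against FeO themselves called 1 of the 9 genes, beside 6.76% of all genes higher and 8.10% lower in Spns1 KO. Those are 1113 and 1334 genes, or 751 and 1465 with library totals alone as the scaling. Hsd11b1 was 1.89-fold higher in Spns1 KO than in FeO (log2 fold change 0.91, SE 0.24, adjusted p = 0.0216). The call was lost without Spns1 KO 2, without FeO 3 and in a fit of those 2 groups alone, where the adjusted p reached 0.0712. For the other genes no difference between the models was called with all libraries. The estimates were 0.96 (SE 0.43, adjusted p = 0.134) for Zbtb16, 0.90 (SE 0.36, adjusted p = 0.097) for Klf9 and -0.78 (SE 0.31, adjusted p = 0.0958) for Hsd11b2. Without the library labelled Spns1 KO 4 they were 0.19, 0.42 and -0.58. Without FeO 2, Klf9 (1.29, adjusted p = 0.0226) and Hsd11b2 (-1.02, adjusted p = 0.0195) were called. Whether these genes shifted more in FeO than in Spns1 KO thus depended on the libraries included.

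Much of the spread inside Spns1 KO came from a single library. The library labelled Spns1 KO 4 lay inside the WT range for 6 of the 9 genes (Nr3c2, Tsc22d3, Sgk1, Zbtb16, Klf9 and Hsd11b2), whereas each of the other 3 did so for Nr3c1 alone. With library totals alone as the scaling, Spns1 KO 2 and 3 lay below the WT range for Nr3c1. On that scale Zbtb16 in the library labelled Spns1 KO 4 (241.6 CPM) lay just below the lowest WT library (242.3 CPM). The library labelled Spns1 KO 4 had lower Fkbp5 and higher Hsd11b1 than any WT library, as the other 3 did. Without it, 5 of the 9 genes were called lower in Spns1 KO and 2 higher, beside 2677 and 3003 of all genes tested. With both this library and the one labelled WT 4 left out, 4 were lower and 2 higher, beside 2570 and 2990. Without Spns1 KO 1, 2 or 3 the count was 0 lower and 1 higher, beside 504 to 527 and 1531 to 1654. FeO calls were steadier: 5 were lower in every leave-one-out fit.

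**Figure D3:**
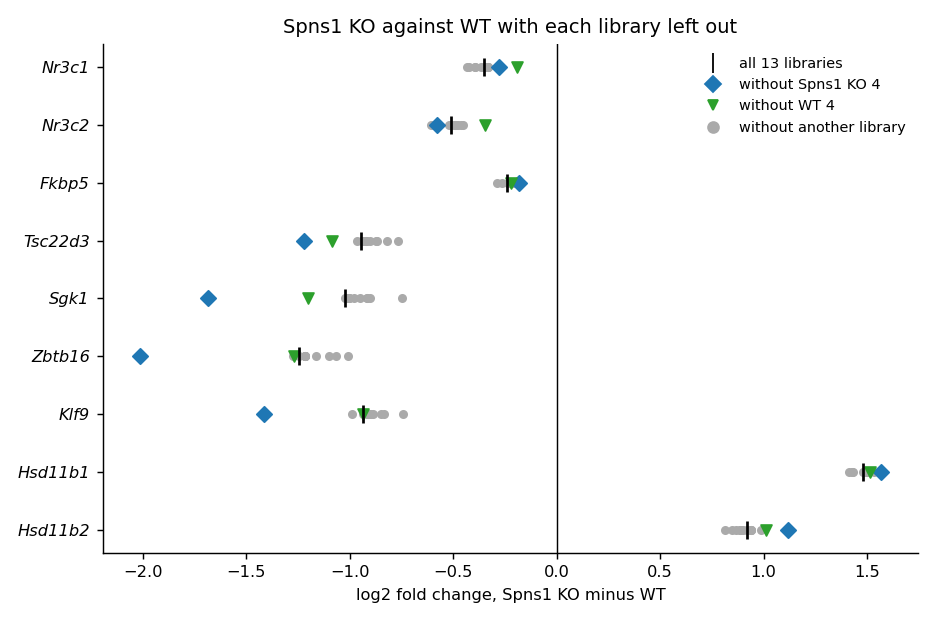
Log2 fold changes of the 9 genes in Spns1 KO against WT (horizontal axis) in the fit of all 13 libraries (bars), without Spns1 KO 4 (diamonds), without WT 4 (triangles) and without each other library (grey points). Without Spns1 KO 4, Zbtb16 moves from -1.24 to -2.02 and Sgk1 from -1.02 to -1.68, whereas Hsd11b1 stays between 1.41 and 1.57.

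Klf9 and Hsd11b2 ran opposite to each other from library to library. When the 13 libraries are put in order from the lowest Klf9 to the highest and from the highest Hsd11b2 to the lowest, the first 7 come in the same places, from FeO 1, FeO 4 and FeO 3 through Spns1 KO 2, 3 and 1 to FeO 2. The library labelled Spns1 KO 4 comes after these, among WT, in both orders. Across the 13 libraries Pearson's r of their log2 levels was -0.98, and that of Klf9 with Zbtb16 was 0.96. These correlations are descriptions with no test, since the libraries fall into 3 groups and share their scaling. Of 12207 genes averaging 100 counts or more, 4.17% had r of 0.9 or more with Klf9 and 3.43% had r of -0.9 or less.

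**Figure D4:**
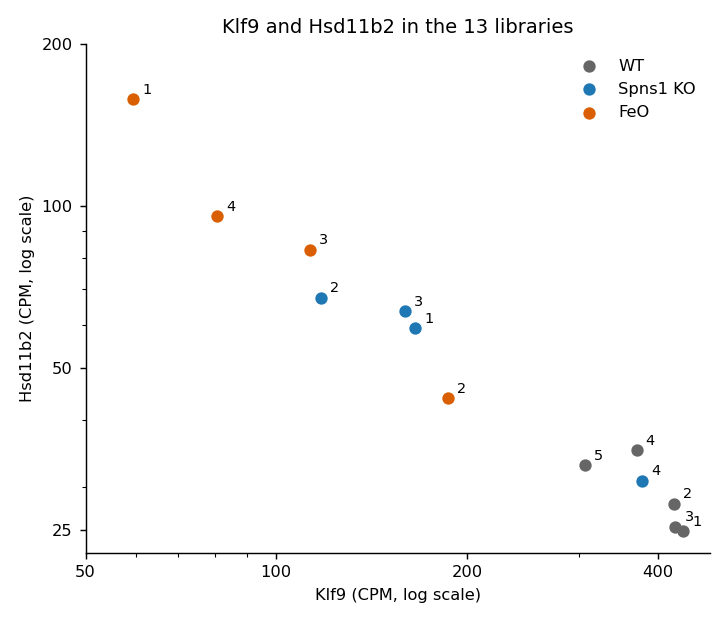
Level of Klf9 (horizontal axis) against Hsd11b2 (vertical axis) in CPM on log scales, 1 point for each of the 13 libraries, coloured by group and labelled with the replicate number. The points run from FeO 1 (59.5 and 158 CPM) at the upper left to WT 1 (438 and 24.9 CPM) at the lower right, with Spns1 KO 4 among the WT points.

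The gene whose level was most like that of Tsc22d3 over the 13 libraries was Sgk1 (r = 0.96), and after the group means were taken out Sgk1 still had Tsc22d3 among its 3 nearest (r = 0.91). Zbtb16 was most like the autophagy kinase gene Ulk1 (r = 0.99), Klf9 like Cpeb4 (r = 0.98) and Hsd11b2 like Reep5 (r = 0.98). The nearest to Hsd11b1 were App, the endothelial gene Plvap and Fbln5, all with r of 0.97. Nr3c1 was most like the ubiquitin ligase gene Itch (r = 0.98), Nr3c2 like Ipcef1 (r = 0.95) and Fkbp5 like Mfhas1 (r = 0.95). Zbtb16 had r of at least 0.9 with 6.49% of the 12207 genes and Fkbp5 with 0.0328%, so Zbtb16 shared its course with many more genes than Fkbp5 did.

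To compare genes with each other, levels were also put per length of transcript, as TPM (transcripts scaled to 1000000 per library). In WT the order of mean levels was Fkbp5 at 405 TPM, Sgk1 at 365, Tsc22d3 at 195, Klf9 at 188, Zbtb16 at 152, Nr3c1 at 49.4, Hsd11b2 at 34.8, Hsd11b1 at 18.4 and Nr3c2 at 13.6. Neighbours in this order overlapped in their ranges over the 5 WT libraries, apart from Zbtb16 and Nr3c1 and apart from Hsd11b2 and Hsd11b1. In FeO, Hsd11b2 took rank 3 at 92.5 TPM and Zbtb16 rank 6 at 27.1 TPM. In Spns1 KO, Hsd11b1 at 39.2 TPM stood above Nr3c1 at 28.9 TPM, the reverse of WT, though their ranges overlapped.

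The wider set of glucocorticoid-responsive genes was lower in FeO as well. Of 28 such genes 27 passed the filter on low counts. In FeO 16 of them were called lower and 2 higher, beside 19.7% and 22.4% of all genes, with a median log2 fold change of -1.32. Those that fell most were Ddit4, an inhibitor of the growth kinase mTORC1 (log2 fold change -3.05, adjusted p = 0.00801), Errfi1, a brake on the EGF receptor (-2.28, adjusted p = 0.0105), Zfp36, which speeds the decay of cytokine messages (-2.23, adjusted p = 0.0146), and the clock gene Per1 (-2.01, adjusted p = 0.0265). The cell cycle inhibitor gene Cdkn1c (1.82) and the annexin gene Anxa1 (1.05), which also answer to glucocorticoid, rose in FeO. In Spns1 KO 5 were called lower and 1 higher, beside 7.55% and 14.0% of all genes, with a median of -0.88. Those called lower were Pdk4 (-1.65), which restrains glucose oxidation, Arrdc3 (-1.38), Angptl4 (-1.24), Lpin1 (-1.22) and Sesn1 (-1.01), and Cdkn1c was higher (0.90). Without the library labelled Spns1 KO 4 the count in Spns1 KO was 15 lower and 1 higher, with a median of -1.38, and over all genes it was 2677 lower and 3003 higher. Many of these genes answer to other signals too, and 8 of 16 core clock genes, Per1 among them, were called in FeO, 7 lower and 1 higher. In Spns1 KO edgeR called 0 of the 16 and DESeq2 1, and 1 had an unadjusted p under 0.05. With the library labelled Spns1 KO 4 left out edgeR called 3 lower, and 4 lower with the library labelled WT 4 left out as well. The summed level of the clock genes was 1708, 1463 and 1517 CPM in Spns1 KO 1 to 3, below the 2262 to 2511 of WT, and 2929 CPM in the library labelled Spns1 KO 4.

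Of 17 genes for chaperones that hold and fold the receptor, 11 were higher in FeO and 6 in Spns1 KO, with none lower in either, and median log2 fold changes of 0.60 and 0.39. The remaining 6 and 11 were not called. Of all genes tested, 22.4% were higher in FeO and 14.0% in Spns1 KO. In Spns1 KO 10 of the 17 were higher with the library labelled Spns1 KO 4 left out, beside 3003 of all genes. With the library labelled WT 4 left out 6 were higher, beside 2132 of all genes. Bag1, an Hsp70 cofactor, rose by 1.71 on the log2 scale in FeO and by 1.17 in Spns1 KO. Fkbp4, the immunophilin that competes with Fkbp5 in the complex, rose by 1.16 and 1.06. Stip1, which hands the receptor from Hsp70 to Hsp90, rose by 1.00 in FeO, and Cdc37 by 0.66 in Spns1 KO. Of 19 coregulator genes 14 were lower in FeO and 6 in Spns1 KO, beside 19.7% and 7.55% of all genes, with none higher. In Spns1 KO this became 10 lower without the library labelled Spns1 KO 4 and 2 lower without the library labelled WT 4. Over all genes those fits called 2677 and 838 lower. Ep300, a histone acetyltransferase, had log2 fold changes of -1.50 in FeO and -0.61 in Spns1 KO, and the corepressor gene Nrip1 had -1.39 and -0.79. After the trend on transcript length and GC content was removed, 6 coregulator genes were called lower in FeO and 1 in Spns1 KO, while 10 and 6 chaperone genes were still called higher. Over all 16468 genes that fit called 2296 lower and 3154 higher in FeO, and 704 lower and 1888 higher in Spns1 KO.

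**Figure D5:**
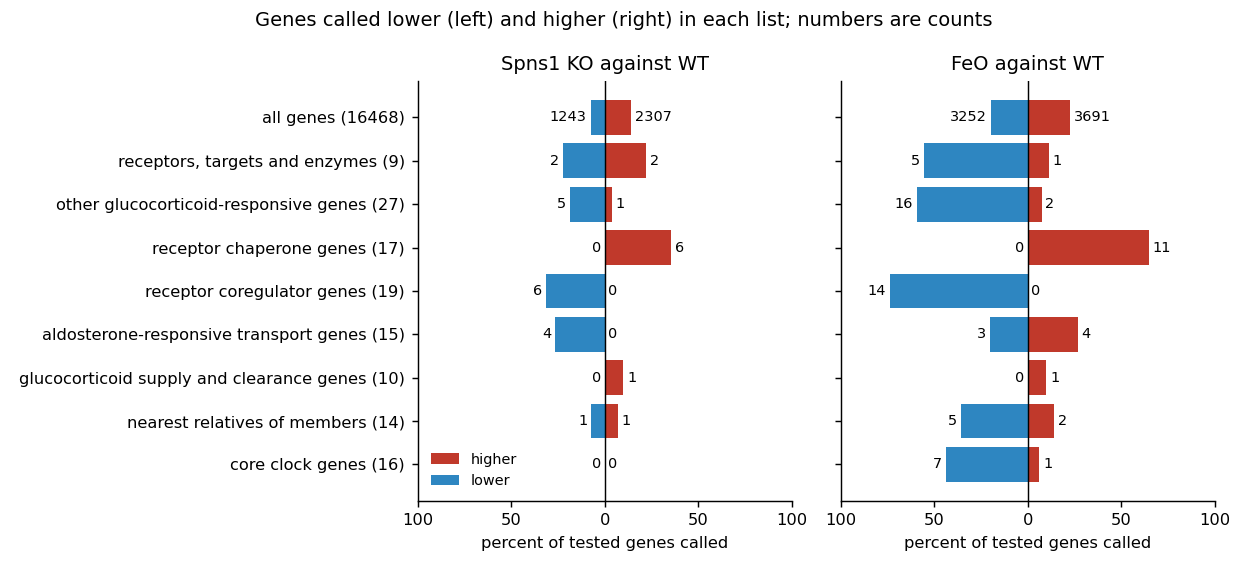
Percent of the tested genes of each list (horizontal axis, number tested in brackets) called lower (bars to the left) and higher (bars to the right) in Spns1 KO against WT and in FeO against WT, with counts beside the bars. In FeO, 16 of 27 other glucocorticoid-responsive genes and 14 of 19 coregulator genes are lower and 11 of 17 chaperone genes are higher, beside 19.7% and 22.4% of all genes.

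Of 15 genes of aldosterone-driven salt transport, 4 were higher and 3 lower in FeO, shares near the 22.4% and 19.7% of all genes. In Spns1 KO 4 were lower and none higher, beside 7.55% and 14.0% of all genes. Leaving out the library labelled Spns1 KO 4 gave 6 lower, beside 2677 of all genes. Leaving out the library labelled WT 4 gave 2 lower and 1 higher, beside 838 and 2132 of all genes. The ubiquitin ligase gene Nedd4l, which removes the sodium channel from the membrane, was lower in both (-0.90 in FeO and -1.02 in Spns1 KO). Stk39, the kinase that switches on the sodium-chloride cotransporter, was higher in FeO (0.76) and lower in Spns1 KO (-0.74), and the models differed (-1.50 in Spns1 KO against FeO, adjusted p = 0.00245). In FeO the potassium channel gene Kcnj1 was higher (1.00), and Cnksr3 (-0.85) and the deubiquitinase gene Usp2 (-1.38) were lower. In Spns1 KO Wnk1 (-1.06) and the channel subunit gene Scnn1g (-0.87) were lower.

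Of 10 tested genes that supply or clear glucocorticoid, 1 was called in Spns1 KO and 1 in FeO, both higher, beside the 14.0% and 22.4% of all genes that were higher. Leaving out the library labelled Spns1 KO 4 gave 2 in Spns1 KO. Abcb1a, whose product pumps glucocorticoid out of cells, was higher in Spns1 KO (log2 fold change 1.27, adjusted p = 0.000868), and Srd5a1, which encodes a steroid reductase, was higher in FeO (0.82, adjusted p = 0.0114). The steroid synthesis genes Cyp11b1 and Cyp21a1 were not called, but varied widely inside each group. Cyp11b1 ran from 0.18 to 76.5 CPM in WT, 0.05 to 86.2 in Spns1 KO and 0.04 to 301 in FeO. Cyp21a1 ran from 0 to 19.7, 0.03 to 39.9 and 0.11 to 121 CPM. For these genes the lack of a call does not show equal levels. Among 14 tested relatives of the 9 genes, 2 were higher and 5 lower in FeO, beside 22.4% and 19.7% of all genes. Klf13 (-1.56), Zbtb20 (-1.56) and Tsc22d2 (-1.30) were lower there and Fkbp4 was higher. In Spns1 KO, Fkbp4 was higher and Tsc22d2 lower (-0.70), beside 14.0% and 7.55% of all genes. Leaving out the library labelled Spns1 KO 4 gave 1 higher and 5 lower, beside 3003 and 2677 of all genes.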

How the data were processed

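The captured RNA of 13 kidney libraries was compared between Spns1 KO (4), WT (5) and FeO (4), grouped by sample title. The values deposited by the authors are an estimated count per gene symbol and library, in whole numbers, without normalization. The submitters' processing notes name bcl2fastq 2.19, kallisto 0.44.0, DESeq2 and GRCm38, whereas the methods describe alignment to mm10 with STAR and counting with HTSeq. Reads shared between transcripts may thus be split by an estimate. Library totals, from 23068023 to 71296474, set the counting precision.

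Genes kept by filterByExpr (16468 of 35013) were fitted in edgeR 4.0.16 (R 4.3.3) with TMM factors, group as the only term and all 13 libraries in 1 fit. Its quasi-likelihood test, tested on simulated data first, was adjusted by Benjamini-Hochberg over all genes. Levels are CPM, and TPM used the median length of GENCODE vM21 basic coding transcripts. The likest genes were the 3 of highest Pearson r of log2 CPM (prior count 2) among genes averaging 100 counts or more. From other lists, up to 4 called genes of largest change were named per comparison. In addition, Sesn1, Cdkn1c, Anxa1 and Stk39 in FeO were named after their values were seen. Replicate, tool, scaling, filter, length and GC, and leave-one-out alternatives were tried, with limma 3.58.1 and DESeq2 1.42.0 among them. The members and lists were chosen with earlier results of these data known. The result of a single gene in Spns1 KO against FeO is not reported here.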

Additional observations from a re-analysis of the deposited data

Results flagged for a closer look

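Within groups, 30 sets of 4 or 5 values (9 genes and Spns1 in 3 groups) were checked for a library far from the rest, and 4 were flagged, where chance flags about 1 in 20. The library labelled WT 4 was far below the other WT libraries for Sgk1 (188 CPM) and for Spns1 (39.2 CPM). The library labelled Spns1 KO 4 was far above the others of its group for Zbtb16 (257 CPM). WT 5 was below the rest of WT for Hsd11b1 (8.69 CPM).

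The 2 models differed in their effect by edgeR's quasi-likelihood test of Spns1 KO against FeO. Among the 9 genes this was Hsd11b1, with a log2 difference, Spns1 KO minus FeO, of 0.91. Among other glucocorticoid-responsive genes it was Cdkn1c (-0.93) and Anxa1 (-1.11), and among chaperone genes Stip1 (-0.64) and Ptges3 (-0.69). The coregulator genes Ep300 (0.88) and Kdm4a (0.79) were higher in Spns1 KO. Of the salt transport genes Scnn1a (-1.08) and Stk39 (-1.50) were lower. The efflux pump gene Abcb1a was higher (1.46). Among relatives of the 9 genes, Sgk3 (0.97), Zbtb7a (0.51) and Zbtb20 (0.99) were higher and Klf16 lower (-0.71). Of the clock genes, Cry2 (1.43) and Per2 (1.47) were higher and Arntl (-1.13) and Npas2 (-2.23) lower in Spns1 KO than in FeO. Over all genes the same test called 6.76% higher and 8.10% lower in Spns1 KO. Several of these calls depended on the fit. In a fit of those 2 groups alone, Hsd11b1 and all the chaperone and coregulator genes were no longer called. That fit called 1 salt transport gene and 1 clock gene.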

How the results depend on the processing

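Of the 24 alternatives, 13 left out 1 library each and 1, the fit without the libraries labelled Spns1 KO 4 and WT 4, was chosen after seeing the data. Of 720 results for single genes and alternatives, 650 kept direction and side of the threshold, 33 no longer passed, 26 newly passed and 11 were reversed. Genes called in Spns1 KO against WT numbered 3550, in leave-one-out fits 2035 (without Spns1 KO 3) to 5680 (without Spns1 KO 4), 5560 without the libraries labelled Spns1 KO 4 and WT 4, and 1589 with the length and GC trend removed and the replicate block. In FeO against WT there were 6943, in leave-one-out fits 5627 to 7473, and 4564 with that trend removed and the block. In Spns1 KO against FeO there were 2447, in leave-one-out fits 1181 (without FeO 1) to 3087, and 1040 in a fit of those 2 groups alone.

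The replicate numbers are shared by the groups, and whether they pair the libraries is not stated. The paper compared littermates and gave tamoxifen to mouse pairs in parallel. Same-numbered libraries had correlations of their deviations from the group means from -0.30 to 0.26. Differently numbered libraries were not correlated, so these values cannot tell whether the libraries were paired. With the replicate block, 2988, 6516 and 1917 genes were called in Spns1 KO against WT, FeO against WT and Spns1 KO against FeO. Among the 9 genes, Tsc22d3 (adjusted p = 0.0899) and Hsd11b2 (0.0741) then missed the threshold in Spns1 KO against WT.

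All reversals concerned differences that had not passed. Nr3c1 in Spns1 KO against WT turned to 0.027 with the length and GC trend removed. Nr3c2 in FeO against WT turned to 0.30 with that trend removed, 0.35 with the block added, 0.038 without FeO 2 and 0.069 without the libraries labelled Spns1 KO 4 and WT 4, and its leave-one-out fits ran from -0.18 (without FeO 1) to 0.084 (without the library labelled WT 4). In Spns1 KO against FeO, leave-one-out fits ran from -0.029 (without FeO 4) to 0.18 (without FeO 3) for Fkbp5. For Tsc22d3 the lowest such value was -0.038, when Spns1 KO 4 as labelled was dropped, and the highest was 0.42, when Spns1 KO 2 was dropped. Dropping the same libraries gave Sgk1 its lowest and highest values, -0.19 and 0.74. With both Spns1 KO 4 and WT 4 as labelled dropped, the values were again -0.038 and -0.19. The causes were not tested. At the lowest member, Hsd11b1 in WT, a library held 225 to 438 counts, and counting error was not set against the spread between libraries.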
